A study of Mus musculus with 28 samples.

Results

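The comparison asked which transcripts change when TGF-β is added to T cells that already receive IL-4. It uses 6 RNA-seq libraries, 3 of WT cells cultured with IL-4 and 3 of WT cells cultured with TGF-β + IL-4, out of 28 samples in the series, of which 24 are RNA-seq. The series crosses 2 genotypes, WT and *Tgfbr1* KO, with 4 cultures (medium alone, either cytokine, or both), and adds DNase-seq libraries that were not used here. The mice were of the C57BL/6 background, of both sexes and 8–10 weeks old. In the paper's first figure, WT stands for *Tgfbr1* f/f Ert2-cre+ mice given oil and KO for those given tamoxifen. The labels of the DNase-seq samples say oil-treated for WT and tamoxifen-treated for KO, without naming the alleles. If the RNA-seq used the same mice, the WT cells carry the floxed alleles and the cre without tamoxifen. The RNA-seq labels themselves say WT1, WT2 and WT3 only. Naïve CD4+ T cells were isolated with magnetic beads from spleen and lymph nodes and stimulated in all 6 cultures with plate-bound anti-CD3 (1 µg/ml) and soluble anti-CD28 (1 µg/ml). IL-4 was added at 10 ng/ml, and the TGF-β + IL-4 cultures also received TGF-β1 at 2 ng/ml. The time of culture before RNA was taken is not given in the sources used here. Libraries were made from polyadenylated RNA by Smart-seq2, which copies full-length transcripts, and expression is given as RPKM, a read number corrected for gene length and for how many reads a library mapped.

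TGF-β binds a complex of TGF-β receptor II and receptor I, and receptor I phosphorylates Smad2 and Smad3, which enter the nucleus with Smad4 and act with partner factors on target genes. IL-4 signals through Stat6 and raises Gata3, the master factor of Th2 cells. In activated CD4+ T cells TGF-β is known to induce Foxp3 and the regulatory T cell (Treg) program, to restrain effector cytokines and cytotoxic molecules, and, together with IL-4, to direct cells to the IL-9-producing Th9 fate.

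The headings of the RNA-seq table conflict with the read counts listed for 8 of its libraries, so columns were taken in the order of their library numbers instead of by heading. Which genes were at 0 in the read counts matched 1 column for each of the 8 libraries, at 99.8–99.9% of the genes compared, against at most 85.8% for any other column. That column was the one of library-number order in 8 of 8 cases and the headed one in 2. Of the 6 libraries compared here, 4 were identified in this way, replicates 1 and 3 of each culture. Replicate 2 of each culture rests on the order alone, and 5 of the 6 columns carry a heading of another library. Named genes whose call changed without replicate 2 are therefore given with their value there. The counts of gene lists then moved by at most 2 genes, except for the mitosis list. No column was a copy of another (correlations between 0.991 and 0.999 across genes). Read totals are not in the table, but the steps between low RPKM values gave the depth relative to TGF-β + IL-4 replicate 3. It was 1.66, 0.950 and 1.45 for the 3 IL-4 libraries and 0.946 and 0.826 for TGF-β + IL-4 replicates 1 and 2, so the TGF-β + IL-4 libraries were the shallower ones in replicates 1 to 3. Nothing in the labels says that the replicates are separate mice, and the p-values measure only the spread between these libraries.

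Adding TGF-β to IL-4 raised more genes than it lowered. A gene was tested where its mean RPKM over the 6 libraries reached 1, and called where limma gave an adjusted p below 0.01 together with a change of more than 1.5-fold. Of 9829 genes tested, 912 were called (9.28%), 596 of them higher (6.06%) and 316 lower (3.21%) in TGF-β + IL-4 than in IL-4 cells. Changes are given as differences of log2(RPKM + 1), on which weakly expressed genes change by less than their ratio of RPKM. Over all genes tested the median difference was 0.02, and −0.02 under either scaling. The called genes had medians of 0.85 among the higher and −0.80 among the lower. More than 2-fold changes were seen in 198 of the higher and 52 of the lower genes, and more than 4-fold changes in 21 and 2. In all 912 called genes the 3 libraries of one culture lay above the 3 of the other, which also held for 30.1% of the genes tested in the higher and 26.4% in the lower direction. Without replicate 2, 985 genes were called (651 higher and 334 lower). They included 844 of the 912, and none of these had changed direction. With the columns as headed 0 genes were called, and 37 had an unadjusted p under 0.05.

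**Figure D1:**
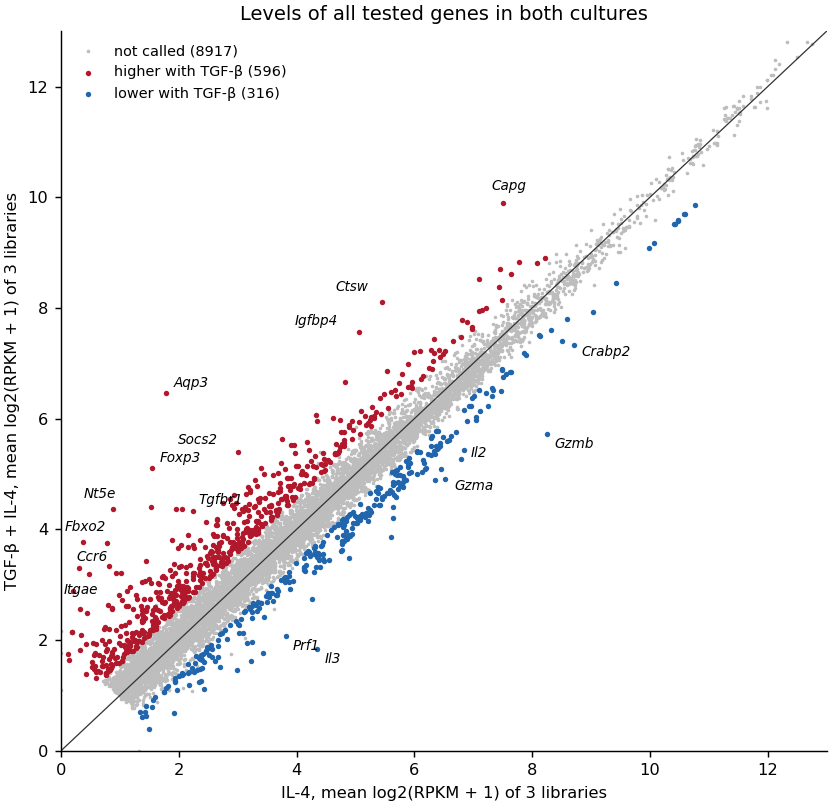
Mean log2(RPKM + 1) over 3 libraries of IL-4 cells (x axis) and of TGF-β + IL-4 cells (y axis) for the 9829 genes tested. Red points are the 596 genes called higher with TGF-β, blue points the 316 called lower, grey points those not called, and the line marks equal levels. *Aqp3*, *Foxp3* and *Nt5e* lie farthest above the line and *Gzmb* and *Il3* farthest below it.

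*Aqp3*, a channel for water and glycerol, had the largest rise. Its RPKM was 2.55, 3.28 and 1.72 in replicates 1 to 3 of IL-4 cells and 88.6, 82.7 and 92.1 with TGF-β added, a log2 difference of 4.68 (SE 0.14, limma adjusted p = 7.46e-08). The 2 cultures were far apart, at 34.9 times the mean level. *Foxp3*, the defining transcription factor of Tregs, followed, with 1.85, 2.0 and 1.92 in IL-4 cells and 31.4, 34.8 and 34.8 with TGF-β added. The log2 difference of *Foxp3* was 3.57 (SE 0.07, limma adjusted p = 5.98e-09). *Nt5e* encodes CD73, an ectoenzyme that makes adenosine from AMP, and had 0.717, 1.08 and 0.730 RPKM in IL-4 cells against 18.3, 19.8 and 21.2 with TGF-β, a log2 difference of 3.5 (SE 0.10). *Itgae* encodes CD103, the integrin chain that holds lymphocytes at epithelia. Its levels were below 1 in IL-4 cells, at 0.429, 0.365 and 0.392, and reached 7.0, 8.69 and 8.76 with TGF-β. For each of these 4 genes every TGF-β + IL-4 library lay above every IL-4 library, which was a condition for choosing the largest rises.

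Some genes of the largest rises were already well expressed with IL-4 alone. *Ctsw*, the lysosomal protease cathepsin W of T and NK cells, had 44.9, 43.5 and 40.1 RPKM in IL-4 cells and 282, 266 and 278 with TGF-β added. *Capg*, an actin-capping protein, was among the abundant transcripts, at 192, 174 and 174 against 972, 954 and 940. *Socs2*, a feedback inhibitor of cytokine signaling, differed little between replicates, with 6.73, 7.29 and 7.01 RPKM in IL-4 cells against 41.2, 41.2 and 41.6. Other members of the 15 largest rises were *Fbxo2*, *Apol9b*, *Syp*, *Apol9a*, *Ccr6*, *Igfbp4* and *Fcrl1*, with log2 differences between 3.40 for *Fbxo2* and 2.42 for *Fcrl1*. *Apol9a* and *Apol9b* are close copies of each other, and reads of one could have been counted for the other. All 15 kept their call under every alternative that tested them, except the columns as headed.

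The largest falls were led by genes of cytotoxic granules and of effector cytokines. *Gzmb*, the serine protease granzyme B, had 260, 326 and 332 RPKM in IL-4 cells and 52.0, 57.5 and 46.4 with TGF-β added, a log2 difference of −2.53 (SE 0.10, limma adjusted p = 3.09e-07). *Il3*, a growth factor for blood cells that activated T cells make, had 17.3, 20.4 and 20.5 RPKM against 1.95, 3.71 and 2.33, a log2 difference of −2.50 (SE 0.15). *Il2*, the main growth factor of T cells, was abundant in IL-4 cells at 113, 108 and 109 and lower with TGF-β at 40.3, 38.5 and 34.5. The level of each of these genes in IL-4 cells exceeded that in every TGF-β + IL-4 library by more than the spread among replicates. The largest falls were chosen among genes whose libraries do not overlap between the cultures. The rest of the 15 largest falls were *Prf1*, *Serpinb9*, *Csf2*, *Gzma*, *Ajuba*, *Gfi1*, *Slco4a1*, *Ifng*, *Trat1*, *Cst7*, *Tnfsf8* and *Crabp2*, with log2 differences from −1.74 for *Prf1* to −1.39 for *Crabp2*. As with the rises, all 15 kept their call wherever they were tested, except under the columns as headed.

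**Figure D2:**
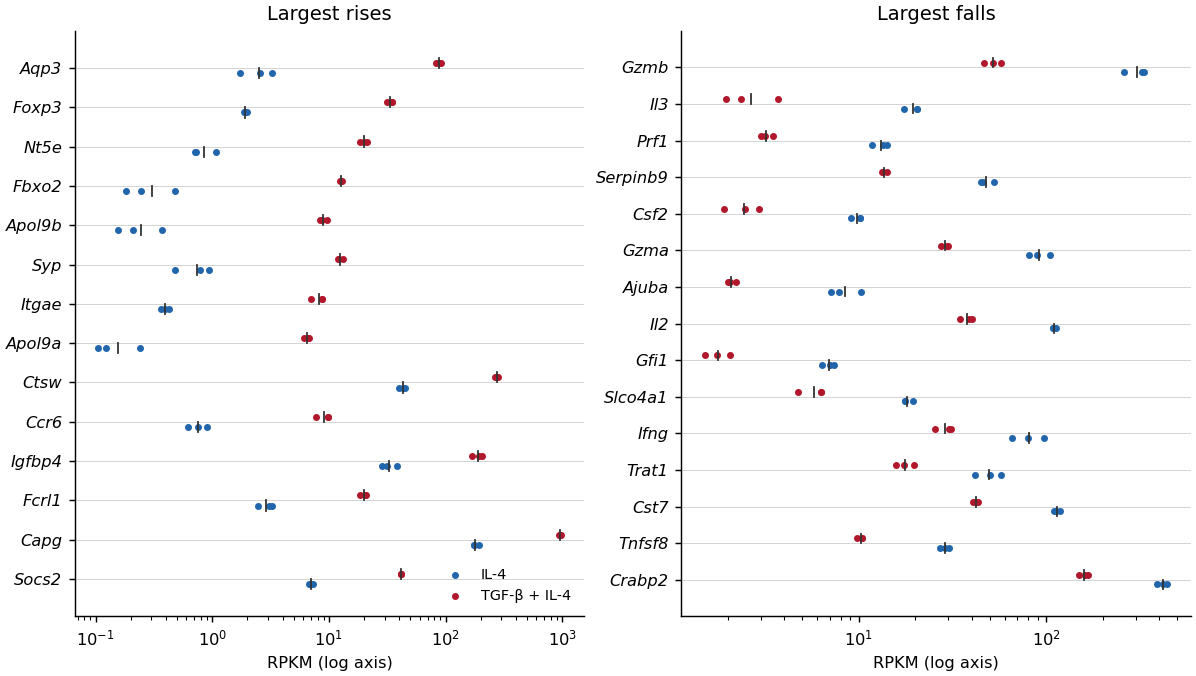
RPKM on a log axis of the genes with the largest rise and the largest fall (15 in each direction, less 1 rise that is not reported), one point per library (3 of IL-4 and 3 of TGF-β + IL-4 cells) and a tick at the mean. The points of the 2 cultures are separate for every gene, which was a condition for choosing them. The genes run from *Aqp3*, with 1.72 to 3.28 in IL-4 cells against 82.7 to 92.1, to *Crabp2*, with 389 to 443 against 150 to 167.

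The promoters of 3 genes that moved strongly, and of *Il9*, are shown to give the sequence next to the start of genes whose level changed. They come from RefSeq in the GRCm38.p6 build, each from 250 bases before to 50 after an annotated start, whereas the reads were aligned to mm9. Capitals mark CAGAC on either strand (written GTCTG where it lies on the other strand), the core of the motif that Smad proteins bind. The *Foxp3* window is chrX:7579426-7579725 on the plus strand, the *Nt5e* window chr9:88327359-88327658 on the plus strand, the *Il9* window chr13:56482208-56482507 on the minus strand and the *Trat1* window chr16:48772013-48772312 on the minus strand. *Trat1*, an adaptor of the T cell receptor complex, fell with TGF-β.
Foxp3: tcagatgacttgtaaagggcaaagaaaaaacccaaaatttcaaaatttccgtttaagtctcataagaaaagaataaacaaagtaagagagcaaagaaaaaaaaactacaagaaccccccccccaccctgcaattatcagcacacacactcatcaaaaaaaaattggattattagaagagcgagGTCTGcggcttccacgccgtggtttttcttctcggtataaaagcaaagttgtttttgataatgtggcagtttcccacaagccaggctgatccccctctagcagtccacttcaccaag
Nt5e: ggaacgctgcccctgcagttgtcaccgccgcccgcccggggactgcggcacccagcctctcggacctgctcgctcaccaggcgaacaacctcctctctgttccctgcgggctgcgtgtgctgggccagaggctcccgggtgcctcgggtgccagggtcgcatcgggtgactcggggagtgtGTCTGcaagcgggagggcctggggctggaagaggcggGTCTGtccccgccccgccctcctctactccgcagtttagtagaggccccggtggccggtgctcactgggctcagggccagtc
Il9: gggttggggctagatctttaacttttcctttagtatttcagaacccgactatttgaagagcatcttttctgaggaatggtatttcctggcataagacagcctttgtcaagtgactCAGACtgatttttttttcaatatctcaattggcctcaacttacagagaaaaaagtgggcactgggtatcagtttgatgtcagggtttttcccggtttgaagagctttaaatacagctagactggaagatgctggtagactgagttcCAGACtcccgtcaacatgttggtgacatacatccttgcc
Trat1: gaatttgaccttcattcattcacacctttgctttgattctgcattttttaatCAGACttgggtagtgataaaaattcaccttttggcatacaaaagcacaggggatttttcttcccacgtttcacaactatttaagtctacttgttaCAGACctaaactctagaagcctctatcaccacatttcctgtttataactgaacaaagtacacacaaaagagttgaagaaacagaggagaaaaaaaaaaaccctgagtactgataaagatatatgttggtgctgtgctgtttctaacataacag
These windows hold 1 match for *Foxp3* and 2 each for *Nt5e*, *Il9* and *Trat1*, and a further annotated start of *Foxp3* at chrX:7580233-7580532 holds 0. The letters are common. They occur in at least 1 window of 53.2% of the 27025 genes in the promoter table and of 51.9% of the 7482 tested genes found there by symbol. Among called genes the share was 55.3% of 450 higher and 45% of 200 lower genes. It was 4 of the 11 largest rises that the table holds and 5 of the 14 largest falls. Every gene shown here has a match, whereas the leading genes *Aqp3*, *Gzmb* and *Il3* have 0. A match describes the letters and does not show a bound site.

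*Tgfbr1*, the receptor that starts the Smad signal, rose with its ligand. It had 3.69, 3.48 and 3.94 RPKM in IL-4 cells and 17.6, 19.5 and 20.7 with TGF-β added, with no overlap, and a log2 difference of 2.10 (SE 0.08, limma adjusted p = 2.11e-07). Of 15 receptors and Smads listed, 10 passed the filter on low values, 4 rose and 0 fell, with a median difference of 0.34. Among all genes tested, 6.06% rose and 3.21% fell, and the counts of this and the following lists stand beside those shares. *Tgfbr2*, the ligand-binding receptor, rose by 1.19 on the log2 scale, from 9.43, 10.5 and 7.90 RPKM to 20.4, 22.6 and 24.1. The co-receptor *Tgfbr3* rose by 0.86, from 6.95, 5.51 and 7.35 to 10.9, 13.8 and 13.7. The count of receptors and Smads that rose was 3 to 4 when any 1 library was left out. The signal transducers themselves were not called, with log2 differences of 0.18 for *Smad2* and 0.12 for *Smad3*.

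Of 16 listed inhibitors that are induced by Smad signaling or act on it, 11 passed the filter on low values. Among these 11, 4 rose and 0 fell, the median was 0.38, and all 11 differences were above 0. *Ski*, a nuclear corepressor of Smads, had 3.92, 3.63 and 3.75 RPKM in IL-4 cells and 12, 10.7 and 12.5 with TGF-β (log2 difference 1.41). Its relative *Skil* rose by 1.07, and *Pmepa1*, which binds receptor-activated Smads, by 1.09. *Smad7*, which blocks the receptor, was low in both cultures, at 0.674, 0.724 and 0.454 against 2.15, 1.88 and 2.26, and also rose. Among 6 genes of TGF-β ligands and their release, *Lrrc32*, which tethers latent TGF-β to the cell surface, and *Furin*, a protease that matures it, rose by 1.12 and 0.94, and *Itgb3* fell. Other known target genes of TGF-β rose in 5 of 11 cases (4 to 5 without any 1 library), with a median of 0.50 and 0 falls. They included *Id1*, an inhibitor of E proteins, from 9.40, 8.84 and 6.81 RPKM to 25.6, 25.5 and 24.1, *Klf10* (log2 difference 0.96) and *Runx1* (0.93).

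**Figure D3:**
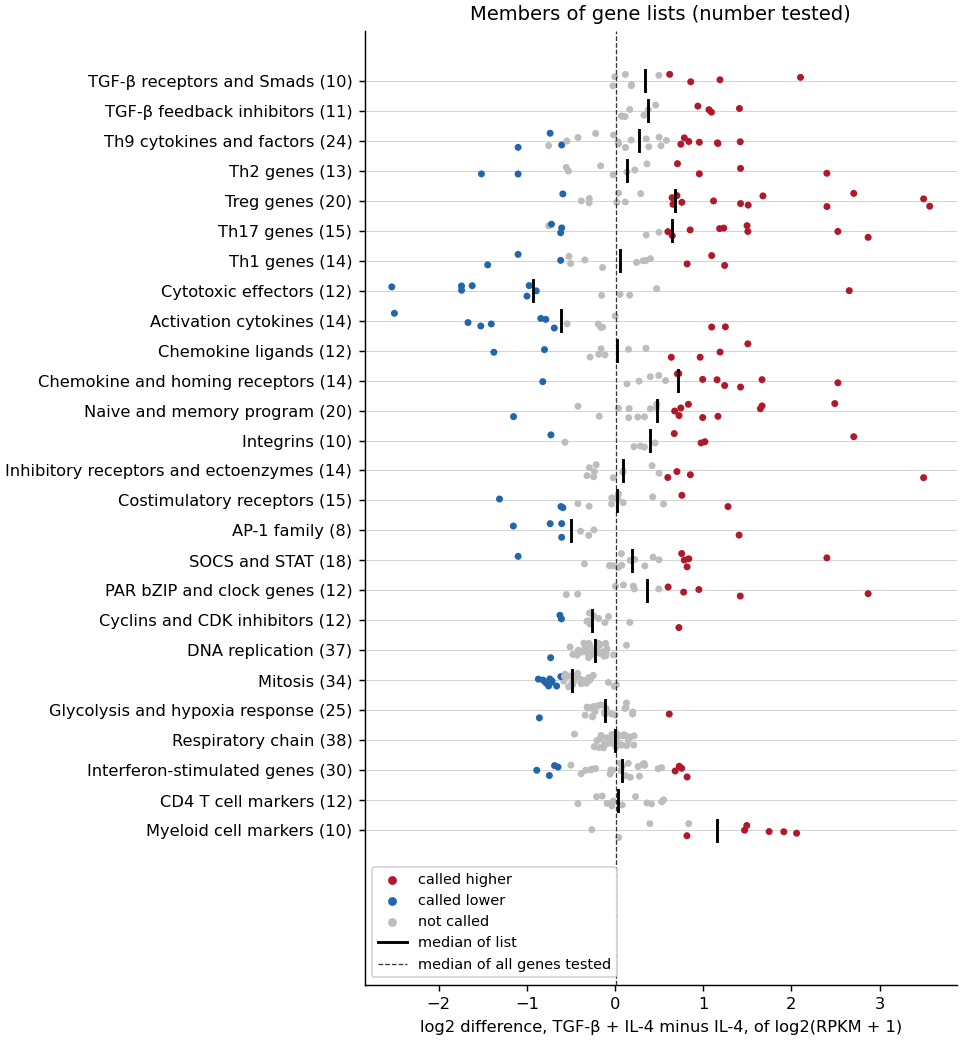
Differences of log2(RPKM + 1) between TGF-β + IL-4 and IL-4 cells for the tested members of each gene list (number tested in brackets). Each point is a gene, red if called higher, blue if called lower and grey otherwise, a black tick marks the median of a list, and the dashed line marks the median of all genes tested, 0.02. The Treg and Th17 lists have medians of 0.68 and 0.65, cytotoxic effectors −0.93, and the mitosis genes −0.49.

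*Il9*, the cytokine that defines Th9 cells, rose with TGF-β. It had 13, 14.6 and 17.4 RPKM in the 3 IL-4 libraries and 36.1, 33.6 and 34.0 in the TGF-β + IL-4 libraries, a log2 difference of 1.16 (SE 0.09, limma adjusted p = 1.58e-05). The cultures did not overlap, and the mean level was 2.31 times higher with TGF-β. In cells without IL-4 the level of *Il9* was 9.93, 10.9 and 8.15 in control and 45.9, 45.2 and 40.1 in TGF-β cells, so that both cultures with TGF-β lay above both without it. Of 24 Th9 cytokines and factors tested, 7 rose and 3 fell, with a median of 0.27, and without any 1 library 6 to 9 rose and 2 to 5 fell. *Dbp*, a clock-controlled transcription factor, rose by 1.42 on the log2 scale, from 2.34, 3.43 and 2.14 RPKM to 8.01, 8.25 and 9.72. *Stat5a*, which transmits signals of IL-2 and related cytokines, had 146, 146 and 151 in IL-4 cells and 248, 262 and 255 with TGF-β added, a log2 difference of 0.79 (SE 0.04). Its paralog *Stat5b* rose by 0.84.

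*E2f8*, a repressor of the E2F family, was lower with TGF-β by an amount that did not reach the fold threshold on the log2(RPKM + 1) scale. Its mean RPKM itself was 1.555 times higher in IL-4 than in TGF-β + IL-4 cells, which is above 1.5-fold. Its levels were 7.29, 7.29 and 8.98 in IL-4 cells and 5.01, 5.51 and 4.62 with TGF-β added, which do not overlap. The log2 difference was −0.55 (SE 0.09, limma adjusted p = 0.0015), and the gene was called without replicate 2 (−0.65) and in other fits given among the processing alternatives. Among the other Th9 factors, *Foxo1* rose by 1.17, *Maf* by 0.96 and *Bcl6* by 0.75, whereas *Irf4* was not called (log2 difference 0.35, adjusted p = 0.00228). *Batf*, an AP-1 partner of Irf4, fell by 0.60, from 120, 127 and 140 RPKM to 85.0, 87.5 and 80.7, a call that was lost without IL-4 replicate 3 (−0.55) and without TGF-β + IL-4 replicate 3 (−0.57).

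*Gata3* was higher in IL-4 cells, at 72.3, 68.4 and 74.8 RPKM, than in TGF-β + IL-4 cells, at 33.6, 33.0 and 32.3. It fell by 1.10 on the log2 scale (SE 0.05, limma adjusted p = 5.49e-07). Without IL-4 the mean of *Gata3* was 21.2 in control and 10.6 in TGF-β cells, so that TGF-β + IL-4 cells still lay above control cells. Of 13 Th2 genes tested, 4 rose and 2 fell, with a median of 0.13. *Gfi1*, a repressor that favours growth of Th2 cells, fell from 6.37, 7.33 and 7.02 RPKM to 1.75, 2.06 and 1.5. The chemokine receptors *Ccr8* and *Ccr4* of Th2 cells and Tregs rose, *Ccr8* from 125, 131 and 153 to 379, 370 and 348 and *Ccr4* by 0.71 on the log2 scale.

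Of 20 Treg genes tested, 12 rose, 1 fell and 7 were not called, with a median of 0.68, and 12 rose whichever 1 library was left out. Beside *Foxp3*, *Nt5e*, *Itgae* and *Capg*, the Foxp3 partner *Ikzf4* rose from 2.98, 3.68 and 2.71 RPKM to 11.2, 12.3 and 13. *Gpr83*, a receptor marking Tregs, rose by 1.51, the folate receptor relative *Izumo1r* by 0.66 and the inhibitory receptor *Ctla4* by 0.70. *Icos*, a costimulatory receptor, rose by 0.76, and *Il2rb*, the β chain of the IL-2 receptor, by 0.65. Among 14 inhibitory receptors and ectoenzymes, 4 rose and 0 fell (median 0.09). *Nt5e*, *Ctla4* and *Cd96*, a receptor of nectin-like ligands, were 3 of the 4.

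Genes of Th17 cells rose in 9 of 15 cases and fell in 3 (median 0.65), and without any 1 library 8 to 9 rose and 0 to 4 fell. Beside *Ccr6*, the receptor chain *Il6ra* rose by 1.23 and the Ccr6 ligand *Ccl20* by 1.51. The aryl hydrocarbon receptor *Ahr* was low, at 0.572, 0.593 and 0.873 RPKM in IL-4 cells, and rose to 2.70, 2.57 and 3.19. *Il17f* was listed at 0, 0.740 and 0.387 in IL-4 cells and at 2.42, 2.85 and 3.13 with TGF-β, well below the 12.4, 11.0 and 12.4 of cells with TGF-β alone. The 14 Th1 genes went both ways, with 3 rises, 3 falls and a median of 0.05. *Stat4*, which transmits the IL-12 signal, fell from 22.3, 22.6 and 22.4 RPKM to 8.73, 10.6 and 10.7, and *Ifng*, the Th1 cytokine, from 65.7, 80.1 and 97.7 to 30.4, 30.9 and 25.5. *Cxcr3*, a chemokine receptor of Th1 cells, and *Lta* rose by 1.24 and 1.10. *Tbx21*, the Th1 master factor, was not called (log2 difference −0.34).

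Cytotoxic effectors had the lowest median of the lists with more than 1 gene tested. Of 12 tested, 7 fell and *Ctsw* alone rose, the median was −0.93, and 7 fell in every fit that left out a library. The pore-forming protein *Prf1* had 11.8, 14.1 and 13.5 RPKM in IL-4 cells and 3.46, 3.02 and 3.16 with TGF-β. Granzyme A, *Gzma*, fell from 80.6, 104 and 89.3 to 29.5, 29.9 and 27.3. The granzyme inhibitor *Serpinb9* fell by 1.74 on the log2 scale, its relative *Serpinb6b* by 0.89 and the death ligand *Fasl* by 0.97.

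Cytokines that T cells release on activation fell in 7 of 14 cases and rose in 2, with a median of −0.62. *Csf2*, which encodes GM-CSF, had 10.2, 9.13 and 10.1 RPKM in IL-4 cells and 1.90, 2.47 and 2.92 with TGF-β. *Tnfsf8*, the ligand of CD30, fell from 27.0, 30.4 and 28.8 to 9.76, 10.4 and 10.4, and its receptor *Tnfrsf8* by 1.31 on the log2 scale. *Lif* and *Tnfsf11* (RANKL) fell by 0.84 and 0.79. The 2 that rose were the lymphotoxins. *Lta* went from 81.8, 73.6 and 84.9 RPKM to 174, 180 and 162, and *Ltb* from 191, 193 and 143 to 427, 404 and 416. Among 12 chemokine ligands 4 rose and 2 fell (median 0.02, and 2 to 4 rises without any 1 library), with *Ccl3* down by 1.37, *Ccl4* by 0.80 and *Ccl1*, the ligand of Ccr8, up by 0.97. Of the 8 receptors of the common γ chain family, *Il2rb* rose and *Il15ra* fell by 1.03. Among 15 costimulatory receptors 2 rose and 3 fell (median 0.02), against 6.06% and 3.21% of all genes tested. *Tnfrsf25*, the death receptor 3 of the TNF receptor family, rose by 1.28.

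Of 14 chemokine and homing receptors, which guide T cells through tissues, 8 rose, 1 fell and 13 differences were above 0, with a median of 0.72, and 7 to 10 rose without any 1 library. *Cxcr6*, a receptor of tissue-resident cells, rose from 2.46, 2.92 and 2.37 RPKM to 6.2, 6.97 and 7.83, and *Selplg*, an adhesion glycoprotein, by 0.72. *Gpr183*, which senses oxysterols, was the one that fell, by 0.82. *S1pr1*, the receptor for egress from lymph nodes, and its factor *Klf2* rose with a wide spread between libraries. *S1pr1* had 3.20, 5.21 and 1.42 in IL-4 cells and 10.1, 10.4 and 14.9 with TGF-β, and *Klf2* had 1.69, 2.68 and 0.954 against 6.18, 6.44 and 10.1. Replicate 3 was the lowest IL-4 library and the highest TGF-β + IL-4 library for both genes. The call of *S1pr1* was lost without replicate 1 (log2 difference 1.80 against 1.67 with all libraries, adjusted p = 0.0184) and with no filter on low values (adjusted p = 0.0132).

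Of 20 genes of naïve and memory cells, 9 rose and 1 fell, with a median of 0.47. Beside those named, *Bach2*, a repressor of effector genes, rose by 0.68, *Bcl2*, which prevents cell death, by 0.83, and *Igfbp4*, a binding protein of insulin-like growth factors, by 2.49. *Satb1*, a chromatin organizer, fell from 23.2, 29.5 and 26.5 RPKM to 11.2, 11.0 and 11.7. Integrins rose in 4 of 10 cases and fell in 1 (median 0.39), among them *Itgb7*, the partner of CD103, from 29.2, 33.2 and 27.4 to 59.8, 60.0 and 64.6, and *Itgb2* of LFA-1 by 0.98 on the log2 scale.

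AP-1 members split, with *Jun* up and 4 of the 8 tested down (median −0.50). *Jun* had 17.7, 18.2 and 15.4 RPKM in IL-4 cells and 46.2, 45.0 and 49.6 with TGF-β. *Atf3*, a stress-responsive member, fell from 26.6, 25.9 and 25.7 to 12.1, 12 and 9.61, and *Fos* by 0.61, a call that was lost without TGF-β + IL-4 replicate 2 (−0.55) and without replicate 2 of both cultures (−0.53). Of 17 immediate early factors and MAPK feedback genes, 2 rose and 2 fell, with *Dusp4*, a phosphatase of ERK, up by 1.40 and the nuclear receptor *Nr4a2* down by 0.67. Counts this small are not read as a result about the group, since 6.06% of all genes tested rose and 3.21% fell. Genes of the SOCS and STAT families rose in 5 of 18 cases and fell in 1 (median 0.20), led by *Socs2*. Clock and PAR bZIP genes rose in 5 of 12 cases (median 0.36, and 4 to 5 without any 1 library). After scaling by median ratios 4 rose and 1 fell. Gene lists share some members, so that 1 gene can count in more than 1 list. *Arntl*, the core activator of the clock, went from 3.6, 3.15 and 3.27 RPKM to 6.83, 7.08 and 8.31, and *Npas2*, also of the clock list, rose by 0.78.

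Of 34 mitosis genes tested, 10 fell, 0 rose and 33 differences were below 0, with a median of −0.49. The number called depended on the libraries and the scaling, with 8 to 13 falls when any 1 library was left out, 16 without replicate 2 and 15 after quantile normalization. *Ube2c*, which loads ubiquitin for exit from mitosis, had 87.3, 84.6 and 95.6 RPKM in IL-4 cells and 52.4, 55.1 and 43.5 with TGF-β. *Cdk1*, the kinase of mitotic entry, fell from 46.2, 49.6 and 50.8 to 30.2, 28.3 and 25.3, its partner *Ccnb1* by 0.87 on the log2 scale and the kinase *Plk1* by 0.75. Among 37 genes of DNA replication, *Rrm2*, a subunit of ribonucleotide reductase, alone was called (log2 difference −0.73), but 36 differences lay below 0, with a median of −0.23. Counts of signs in this and other lists stand beside the median of all genes tested, 0.02, or −0.02 after quantile normalization. Of 13 E2F factors and partners 0 were called, with a median of −0.27, and without replicate 2 *E2f8* was called lower and *Rbl2* higher. *Cdkn1b*, the cell cycle inhibitor p27, rose by 0.72, from 2.92, 2.96 and 2.05 RPKM to 4.63, 4.97 and 5.37. Among the cyclins and inhibitors 2 of 12 fell, against 3.21% of all genes tested.

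Interferon-stimulated genes went both ways, with 4 rises and 4 falls among 30 tested and a median of 0.08. Of all genes tested 6.06% rose and 3.21% fell. The GTPase *Ifi47* rose from 272, 288 and 249 RPKM to 426, 453 and 461, and *Gbp6* by 0.68 on the log2 scale. *Gbp6* belongs to a family of similar genes, whose reads may have been shared. *Xaf1*, which promotes cell death, fell by 0.89, and *Ifih1*, a sensor of viral RNA, from 3.98, 4.02 and 4.39 RPKM to 2.09, 2.22 and 2.26.

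Markers of CD4+ T cells were present in every library. All 12 were tested and 0 were called, with a median of 0.03, and *Cd4* was at 82.1, 84.5 and 79.2 RPKM in IL-4 cells and 75.6, 78.0 and 77.0 with TGF-β added. Their summed RPKM was 2480–2526 in IL-4 and 2940–2981 in TGF-β + IL-4 cells. Markers of myeloid cells rose in 6 of the 10 tested, of 20 in the table, with a median of 1.15. Their summed level was 28.9–58.8 RPKM in IL-4 and 107–165 in TGF-β + IL-4 cells, and none of the 20 was at 0 in all 6 libraries. *S100a8* and *S100a9* encode calcium-binding proteins abundant in neutrophils. *S100a8* had 19.1, 28.6 and 12.5 in IL-4 cells and 79.3, 64.9 and 56.4 with TGF-β, a log2 difference of 1.75. *S100a9* had 7.99, 14.1 and 4.14 against 30.1, 23.2 and 19.7 (log2 difference 1.49), a call that was lost without 4 of the 6 libraries (IL-4 replicate 1 and each TGF-β + IL-4 replicate) with differences between 1.34 and 1.63. *Elane*, *Chil3*, *Lyz2* and *Fcgr3* also rose, by 2.06, 1.91, 1.47 and 0.82, and *Lyz2* lost its call with no filter on low values (adjusted p = 0.0135) and without replicate 2 (log2 difference 1.45). Without replicate 1 the calls of *S100a8* (1.62, adjusted p = 0.0122), *Chil3* (1.99, adjusted p = 0.0117) and *Fcgr3* (0.66, adjusted p = 0.0139) were lost too, and *Chil3* also with no filter (adjusted p = 0.0125). The part of such cells in the other results was not tested. In these bulk libraries fewer cells of a type and less RNA per cell cannot be told apart.

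Summed markers of NK cells were at 104–132 RPKM in IL-4 cells and 46.4–50.4 with TGF-β, and 2 of 5 (*Gzma* and *Ncr1*) were called lower. *Gzma*, which T cells also make, carried most of the sum, and without it the cultures overlapped, at 23.4, 28.1 and 19.9 RPKM against 16.9, 20.5 and 19.6. The 2 CD8 T cell markers had differences of opposite sign. *Cd8b1* fell by 0.63 on the log2 scale, from 30.4, 29.0 and 24.7 RPKM to 16.4, 18.2 and 18.4, a call that was lost without IL-4 replicate 1 (−0.57) and without TGF-β + IL-4 replicate 1 (−0.58). *Cd8a* had 5.96, 6.18 and 5.2 against 8.87, 8.48 and 8.13, under the fold threshold (log2 difference 0.49). B cell markers had 0 calls among 5 tested and overlapped, at 37.8, 20.0 and 18.2 against 50.6, 21.9 and 34.3. Mast cell and basophil markers summed to 9.29–11.8 against 9.31–15.4. Erythroid markers lay between 1.10 and 1.45 except in IL-4 replicate 2, which had 16.0.

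The same contrast in cells without IL-4 shares no library with the one above. Replicate 2 of the control and of the TGF-β cells also rests on library-number order alone. The counts of this contrast are given with all its libraries only. Of 9726 genes tested, 333 were higher (3.42%) and 222 lower (2.28%) in TGF-β than in control cells. Of the 596 genes called higher with IL-4 present, 575 were tested without it, and 268 of those (46.6%) were also called higher and 0 lower. Of the 316 called lower, 308 were tested, and 97 (31.5%) were also called lower and 0 higher. The difference between the settings was tested by the interaction of TGF-β with IL-4 in the 12 WT libraries. It was called for 173 of 9794 genes (1.77%), 139 above 0 (1.42%) and 34 below 0 (0.347%). Calls of the interaction depended on the libraries, with 0 left without replicate 1 (1614 genes at an unadjusted p under 0.05, against 2617 with all libraries), 91 without replicate 2 and 32 without replicate 3.

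**Figure D4:**
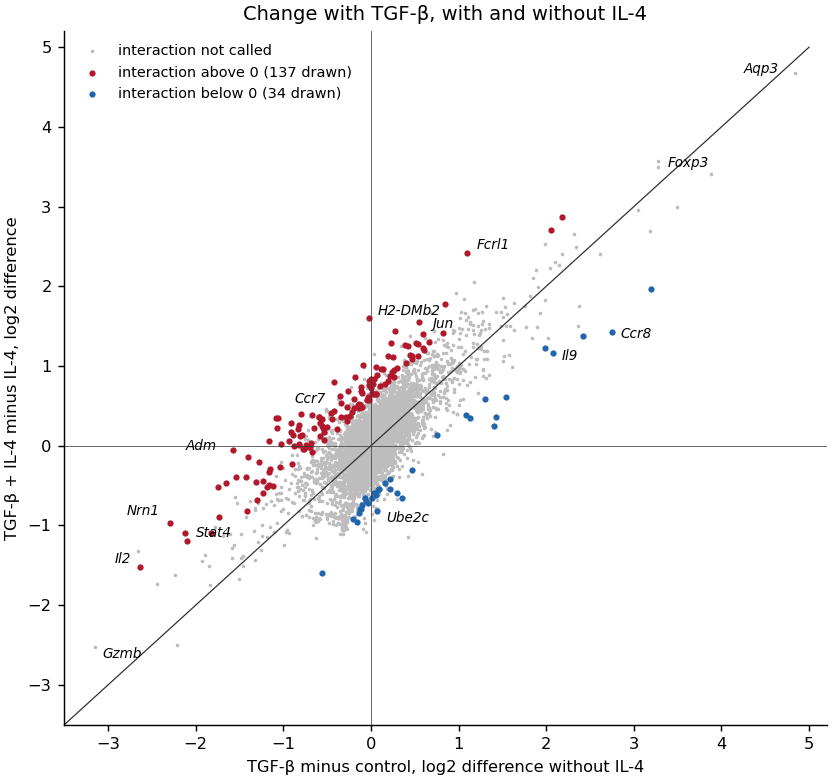
Differences of log2(RPKM + 1) with TGF-β in cells without IL-4 (TGF-β minus control, x axis) and with IL-4 (TGF-β + IL-4 minus IL-4, y axis), 3 libraries per culture. Coloured points are genes whose interaction was called, the diagonal marks equal differences, and genes not tested without IL-4 are left out. *Il2* and *Stat4* lie below 0 on both axes and above the diagonal, and *Il9* and *Ccr8* lie above 0 on both and below it.

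The 139 genes with an interaction above 0 included 53 that fell without IL-4, 58 that rose with it and 9 that fell with it. *Il2* belonged to the first kind. It had 76.6, 65.7 and 64.9 RPKM in control and 10.3, 9.75 and 10.6 in TGF-β cells, a log2 difference of −2.64 against the −1.52 seen with IL-4, and an interaction of 1.12 (SE 0.10, limma adjusted p = 7.3e-05). *Stat4* likewise differed by −2.12 without and −1.10 with IL-4 (interaction 1.02). *Ccr7* encodes the receptor for lymph node entry. Control cells had 814, 766 and 788 RPKM of it, TGF-β cells 457, 468 and 438, IL-4 cells 441, 444 and 396, and TGF-β + IL-4 cells 543, 555 and 593. Its interaction was 1.20, and its difference with IL-4 (0.40) stayed under the fold threshold. *Gbp2* and *Lag3*, an interferon-induced GTPase and an inhibitory receptor, had interactions of 1.08 and 0.86, and both were called lower without IL-4 and not called with it.

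*Jun* and *Icos* rose more with IL-4 than without it, with interactions of 0.81 and 0.78. *Icos* was level without IL-4, at 52.9, 48.6 and 55.0 RPKM in control and 51.5, 49.2 and 53.3 in TGF-β cells. *Foxp3* (interaction 0.29, adjusted p = 0.14) and *Gata3* (−0.16, adjusted p = 0.32) were not called. Among the 34 genes below 0 were *Il9* (−0.91, SE 0.15, limma adjusted p = 0.0032), *Ube2c* (−0.89) and *Cdk1* (−0.68). The mitosis list had a median of −0.04 and 0 calls without IL-4. Of its 34 members 6 had an interaction called below 0, against 0.347% of all genes tested for it. Of these 6, 2 remained without replicate 2 and 0 without replicates 1 or 3. The interactions of *Il9* and *Cdk1* lost their call whichever replicate number was left out. For interferon-stimulated genes the median was −0.29 without IL-4, where 8 fell and 0 rose, and 5 of 30 interactions were called above 0. Over all genes tested, 2.28% fell and 3.42% rose without IL-4, and 1.42% had an interaction above 0.

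**Figure D5:**
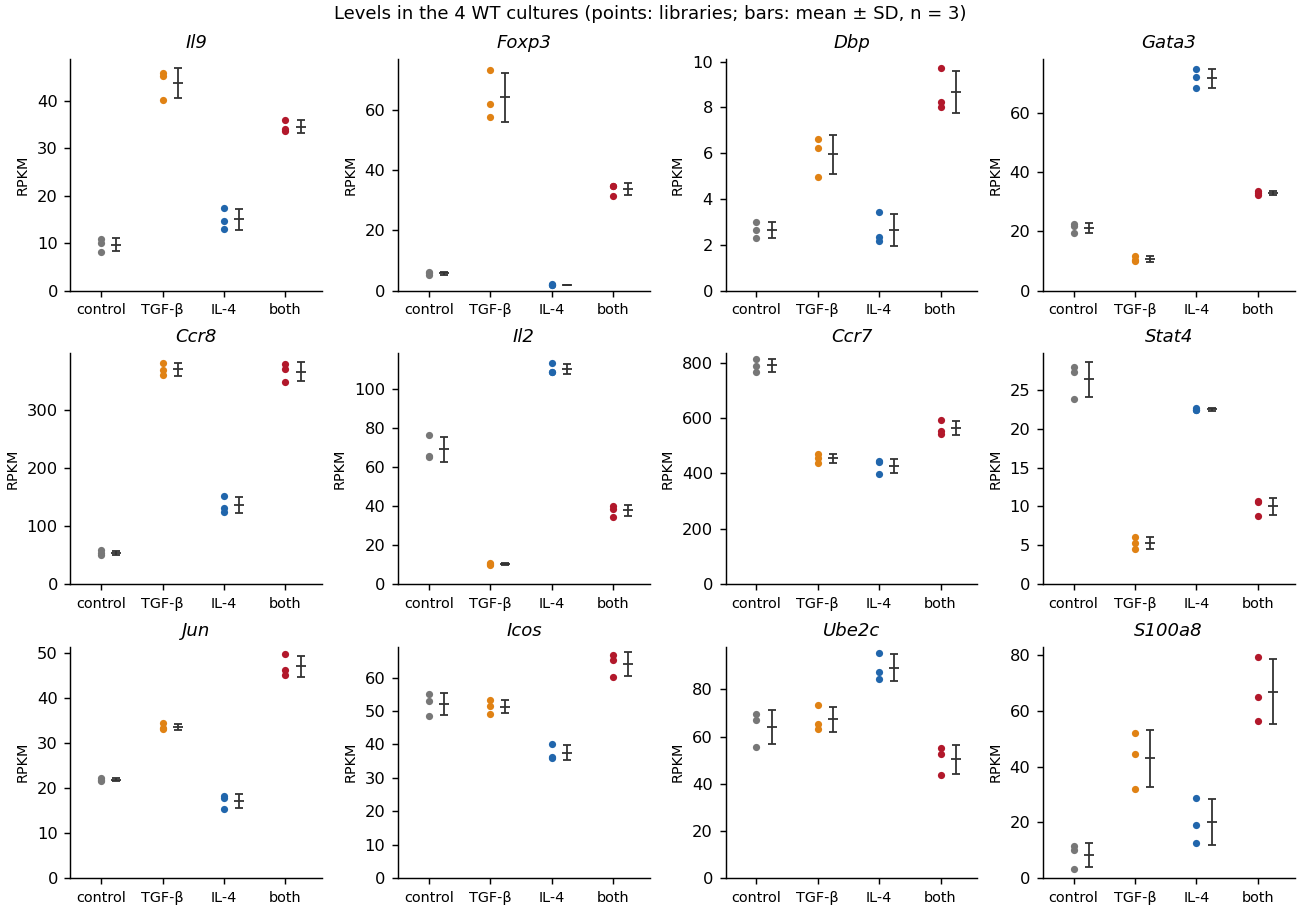
RPKM in each of the 12 WT libraries for 12 genes, 3 points per culture, by culture (both stands for TGF-β + IL-4), with the mean ± SD of the 3 beside them. *Il9* is highest in the 2 cultures with TGF-β, *Gata3* is highest with IL-4 alone, and *Ccr7* is highest in control cells.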

How the data were processed

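Reads had been mapped by the authors to mm9 with Bowtie2, reads of MAPQ up to 10 and redundant reads were removed, and RPKM per gene were computed with edgeR and deposited. Tool versions are not given in the sources used here. The table held 24089 genes and 24 columns, of which the 12 WT columns were used by library-number order and 12 KO columns were not used. Linear models of log2(RPKM + 1) were fitted in limma 3.58.1 (R 4.3.3) with trended moderation, keeping genes whose mean RPKM in the fitted libraries was 1 or more. Calls required p below 0.01 after Benjamini-Hochberg adjustment and more than 1.5-fold change. The interaction was fitted over 12 WT libraries. On simulated data 92% of 100 genes changed by 1 on the log2 scale were recovered among 9807 genes, with 0 false calls. The changed genes were drawn at a higher mean RPKM than the filter requires, and the noise was independent between genes. Differences in depth and effects shared by a whole library were not simulated, so these rates may not hold for the real libraries. Named genes were the 15 largest rises and falls, the 8 largest interactions, *Tgfbr1*, *Il9*, *Dbp*, *E2f8*, *Stat5a* and list members. The rises and falls were taken from called genes whose libraries did not overlap between the cultures. Genes compared in the interaction beyond those 8 were chosen after their values were seen. The libraries and lists were chosen with earlier results of these data known. Alternatives were the columns as headed, another pseudocount (0.1), other filters, scalings, moderation and threshold, a replicate block, all 12 libraries in one fit and left-out libraries. Results on some genes are not reported here. Promoter sequences came from RefSeq (GRCm38.p6). Scripts used Python 3.11.15, pandas 2.3.3, numpy 2.4.6 and matplotlib 3.10.9.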

Additional observations from a re-analysis of the deposited data

Results flagged for a closer look

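The change with TGF-β differed between cells with and without IL-4 in 173 genes by a test of the difference itself, the interaction in limma over 12 WT libraries. The largest were *H2-DMb2* (1.62 on the log2 scale), *Adm* (1.53), *Ms4a6b* (1.43), *Gm6904* (1.41), *Nrn1* (1.33), *Ccr8* (−1.32), *Fcrl1* (1.32) and *AW112010* (1.29). All 8 calls were lost without replicate 1, where 0 genes were called.

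*H2-DMb2*, a chain of the HLA-DM-like molecule that loads MHC class II, had 7.30, 9.24 and 7.14 RPKM in control cells. Its level was 8.31, 6.69 and 8.20 after TGF-β, 12.6, 7.52 and 7.15 after IL-4, and 38.1, 22.1 and 28.1 after both. The summed B cell markers of the last culture, 50.6, 21.9 and 34.3 RPKM, had the same order of libraries, as did *Cd74*, the class II invariant chain, at 254, 137 and 163. Their part in the result was not tested. *Adm*, the peptide hormone adrenomedullin, had 4.70, 3.19 and 4.0 in control cells and at most 1.43 in any library of the other cultures. *Nrn1*, neuritin, fell in both settings, by 2.29 without and 0.96 with IL-4 on the log2 scale. *Ccr8* rose in both, from 53.7, 50.9 and 58.1 to 381, 359 and 368 RPKM without IL-4. *Fcrl1*, a receptor of the Fc receptor-like family, had 7.34, 7.33 and 6.77 RPKM in control cells, 17.7, 15.7 and 16.1 after TGF-β, 2.44, 3.24 and 3.03 after IL-4, and 20.4, 20.6 and 18.3 after both. *Ms4a6b*, *Gm6904* and *AW112010* fell without IL-4 by 1.08, 1.06 and 1.07 and were not called with it, at log2 differences of 0.34, 0.35 and 0.23.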

How the results depend on the processing

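Columns as headed gave 0 calls for TGF-β + IL-4 against IL-4 (37 genes at an unadjusted p under 0.05) and 0 interactions (120 genes). Under the other alternatives the 912 calls ranged from 627 (mean RPKM of 5 or more) to 1179 (pseudocount 0.1), and from 802 to 985 when 1 replicate number was left out. The 173 interactions became 106 with no filter, 284 at an adjusted p under 0.05, and 0 to 91 when 1 replicate number was left out. The cause was not tested. With the replicate number as a block, 922 and 202 genes were called and no named gene of the first comparison changed its call. Deviations of same-numbered libraries correlated at 0.15, 0.07 and −0.09, so the numbers are not shown to pair the libraries.

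Apart from the headings, 103 of 119 named genes kept their call in TGF-β + IL-4 against IL-4. *E2f8* became called with a pseudocount of 0.1 (−0.62), quantile normalization (−0.63), without IL-4 replicate 1 (−0.59) or 2 (−0.59) and without TGF-β + IL-4 replicate 2 (−0.60). Without replicate 1, *Tnfsf11*, *S1pr1*, *Bcl2*, *S100a8*, *S100a9*, *Chil3*, *Fcgr3* and *Cd8b1* were no longer called, and without replicate 3 *Batf*, *Bcl2*, *Plk1*, *Cdkn1b*, *Rrm2* and *Gbp6*. *Cd4* turned from −0.09 to 0.0016 under quantile normalization. *H2-DMb2*, *Gm6904* and *Il9* were the named interactions whose call also changed with all libraries in the fit.

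As headed, these log2 differences turned direction: *E2f8* 0.0012, *Tgfbr3* −0.0125, *Icos* −0.056, *Ltb* −0.030, *Ube2c* 0.022, *Gbp6* −0.13, *S100a9* −0.11, *Chil3* −0.34 and *Cd8a* −0.10. So did the interactions of *H2-DMb2* −0.37, *Adm* −0.40, *Ms4a6b* −0.59, *Gm6904* −0.62, *Nrn1* −0.39, *Ccr8* 0.44, *Fcrl1* −0.52, *AW112010* −0.34, *Il9* 0.31, *Il2* −0.30, *Ccr7* −0.39, *Stat4* −0.12, *Jun* −0.28, *Icos* −0.23, *Ube2c* 0.35, *Cdk1* 0.16, *Gbp2* −0.34, *Lag3* −0.44, *Foxp3* −0.21 and *Gata3* 0.17.

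The table holds RPKM without read totals, so no counting interval is given, and 3 libraries per culture limit the precision.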

Other observations

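Of all genes tested 9.28% were called. Of 38 genes of the respiratory chain 0 were called with limma, with a median log2 difference of −0.01. Among 25 genes of glycolysis and the hypoxia response, hexokinase 2 (*Hk2*) fell from 15.2, 16.4 and 17.9 RPKM to 8.73, 9.05 and 8.19 and 1 gene, *Egln3*, rose (0 to 1 without any 1 library), with a median of −0.12. Of 28 genes of sterol and fatty acid synthesis 1 (*Scd1*) rose, against 0 or 1 gene when a library was left out, and 19 differences were above 0 (median 0.08). Of 24 genes of amino acid supply 1 (*Slc1a4*) rose and 1 (*Cth*) fell, with a median of −0.09.

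Of 6 Id and E protein genes *Id1* alone was called. Of 6 genes of the RUNX and ThPOK group *Runx1* rose and *Cd8b1* fell, and of 8 GIMAP genes *Gimap7* fell. Without any 1 library, 0 to 1 gene fell in the RUNX and ThPOK group and 0 to 1 in the GIMAP group. A list of 7 genes that earlier results of these data had named as strongly changed had 5 rises and 2 falls (median 1.91), which is not independent of these libraries.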
